A study of Mus musculus with 2 samples.

Results

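*Cd80*, *Cd86*, *Cd40*, *Cd274*, *Pdcd1lg2*, *Icosl*, *Cd200r1* and *Havcr2*, 8 of the 55386 features in the count matrices, were followed by gene symbol through the immune cells of the mouse aortic adventitia. They are costimulatory and checkpoint molecules of antigen-presenting cells, although only 5 of the 8 encode ligands: CD40, CD200R1 and TIM-3 (from *Havcr2*) are receptors. All 8 were counted in both libraries. Both libraries came from RankCreRosa26eYFP mice of about 16 weeks, in which Cre made from the *Rank* gene switches on an eYFP reporter that all descendants of the cell keep. CD45-positive cells from whole aortas were enriched on magnetic beads and sorted alive. One group had no treatment (steady state), and the other received angiotensin II (AngII) at 1.8 µg per kg per minute from an implanted osmotic pump. The animals of each condition were pooled into 1 droplet library, so condition and library cannot be told apart and no value here has replicate error.

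An antigen-presenting cell that shows peptide to a T cell also sends second signals. CD80 and CD86 bind CD28, which activates, and CTLA-4, which restrains. ICOSL binds ICOS, and CD40 receives CD40L from helper T cells and in turn raises costimulation. PD-L1 (*Cd274*) and PD-L2 (*Pdcd1lg2*) bind PD-1 and dampen the T cell. CD200R1 and TIM-3 carry inhibitory signals into the myeloid cell itself. Dendritic cells that mature and leave a tissue for the lymph node are known for carrying many of these ligands at once.

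The genes lie apart in the genome, except for one pair. On GRCm38 with GENCODE M21, *Cd86* (ENSMUSG00000022901.13) lies at chr16:36603869-36666081 on the minus strand, *Cd80* (ENSMUSG00000075122.5) at chr16:38455561-38496335 and *Cd200r1* (ENSMUSG00000022667.18) at chr16:44765736-44794978. *Cd40* (ENSMUSG00000017652.16) lies at chr2:165055627-165072948, *Icosl* (ENSMUSG00000000732.9) at chr10:78069302-78083913 and *Havcr2* (ENSMUSG00000020399.14) at chr11:46454935-46481255. *Cd274* (ENSMUSG00000016496.7, chr19:29367455-29388095) and *Pdcd1lg2* (ENSMUSG00000016498.10, chr19:29410919-29471161) are neighbours on the plus strand, 22823 bases apart with 0 annotated genes between them. Each of this pair is overlapped on the other strand by an antisense gene, AC119228.1 and A930007I19Rik, respectively.

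The promoters of the PD-1 ligand pair are shown because both genes were highest in the same dendritic cells on AngII. Each runs 5′ to 3′ from 250 bases before to 50 after the RefSeq start (GRCm38.p6, plus strand), at chr19:29367188-29367487 for *Cd274* and chr19:29410669-29410968 for *Pdcd1lg2*. Capitals mark a match to a searched motif.
*Cd274*: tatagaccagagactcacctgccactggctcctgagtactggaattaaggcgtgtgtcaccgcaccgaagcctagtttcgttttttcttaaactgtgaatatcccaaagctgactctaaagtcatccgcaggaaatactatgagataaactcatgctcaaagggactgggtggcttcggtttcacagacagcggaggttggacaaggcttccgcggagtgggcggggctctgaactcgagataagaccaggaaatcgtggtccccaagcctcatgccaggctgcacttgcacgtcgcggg
*Pdcd1lg2*: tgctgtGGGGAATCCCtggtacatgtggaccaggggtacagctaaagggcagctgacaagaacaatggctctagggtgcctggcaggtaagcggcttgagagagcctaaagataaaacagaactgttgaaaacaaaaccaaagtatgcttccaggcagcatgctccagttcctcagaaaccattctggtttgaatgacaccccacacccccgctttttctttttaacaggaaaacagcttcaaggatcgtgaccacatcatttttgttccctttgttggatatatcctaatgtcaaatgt
RefSeq held such a promoter for 5 of the 8 genes (*Cd80*, *Cd274*, *Pdcd1lg2*, *Icosl* and *Havcr2*). The NF-kB motif was searched by name, TTCNNNGAA for STAT factors and for interferon regulatory factors a pair of TTTC runs with 2 bases between them, all on both strands. The NF-kB motif, present in 5.80% of 32851 promoters of this length, was found once, in *Pdcd1lg2*, starting 244 bases before the gene start. The other motifs (8.30% and 3.44% of promoters) matched none of the 5. A match describes letters in this window, not a site in use.

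The steady-state library held 4009678 unique molecular identifiers (UMIs, 1 per captured transcript molecule) in 346 barcodes, and the AngII library 20481854 in 4419, with 0 barcodes in common. After the filter (300 to 6500 genes, at most 5% mitochondrial UMIs) 306 and 4198 cells remained, with median depths of 9105 and 1092 UMIs. Each cell was classed by lists of marker genes, none of them among the genes described here, and is called "like" its class. Macrophage-like cells numbered 115 at steady state and 1086 on AngII, monocyte-like cells 28 and 326, dendritic-like cells 28 and 306, B-cell-like cells 50 and 220, and T, NK and innate lymphoid (T/NK/ILC)-like cells 50 and 340. Neutrophil-like cells numbered 5 and 388 and are described on AngII only. In every one of these classes the 10 leading genes included 2 to 9 of its own markers. The gate used those markers, so this is no independent check of the classes. No class was given to 20 steady-state cells (6.54%) and 1506 AngII cells (35.9%), and 7 and 262 of the classed cells lay near the dividing line. Levels are UMIs per 1000000 UMIs of the class (CPM) with exact Poisson 95% intervals in brackets, shares of cells carry Clopper-Pearson intervals, and both cover counting error only. CPM is not scaled for gene length, so levels are compared across groups for each gene and not between genes.

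Macrophage transcripts were found in cells that should lack them. T/NK/ILC-like cells held *Apoe* at 4.47% and *C1qa* at 2.20% of the macrophage-like level on AngII, and at 0.964% and 3.82% at steady state. Macrophage markers summed to 37647 CPM in macrophage-like cells on AngII, 12430.3 in neutrophil-like, 10201 in B-cell-like, 8952 in monocyte-like, 1831 in dendritic-like and 1531 in T/NK/ILC-like cells. The part of free RNA and mixed barcodes in the levels of single genes was not tested, and the T/NK/ILC-like level (for *Cd200r1* and *Havcr2* the B-cell-like level) is given as a background.

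*Cd86* was highest in macrophage-like cells at steady state and in dendritic-like cells on AngII. At steady state it stood at 239 CPM (214 to 267) in macrophage-like, 144 (116 to 176) in dendritic-like, 82.1 (57.5 to 114) in monocyte-like and 77.7 (49.2 to 117) in B-cell-like cells. T/NK/ILC-like cells held 8.44 CPM (2.30 to 21.6). Macrophage-like cells were thus above dendritic-like cells, by 1.66-fold (1.32 to 2.12), and monocyte-like and B-cell-like cells did not differ beyond counting error. On AngII the order at the top was the other way round, with 160.4 CPM (147 to 175) in dendritic-like and 109 (100.4 to 118) in macrophage-like cells, a ratio of 1.47 (1.31 to 1.66). There the macrophage-like level did not differ from the 107 CPM of monocyte-like cells, and B-cell-like (94.1), neutrophil-like (83.7) and T/NK/ILC-like cells (17.5) followed.

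*Cd80*, the other ligand of CD28 and CTLA-4, was highest in neutrophil-like cells on AngII. They held 81.3 CPM (66.0 to 99.0), against 50.1 (41.5 to 59.9) in monocyte-like, 41.2 (34.5 to 48.9) in dendritic-like and 24.1 (20.3 to 28.5) in macrophage-like cells. The neutrophil-like level exceeded the monocyte-like one by 1.62-fold (1.23 to 2.14) and the macrophage-like one by 3.37-fold (2.57 to 4.39). At least 1 *Cd80* UMI was found in 16.8% of the 388 neutrophil-like cells (13.2 to 20.8) and in 1.47% of T/NK/ILC-like cells, the background, at median depths of 1428 and 1260.5 UMIs. At steady state the monocyte-like (43.3), dendritic-like (32.8) and macrophage-like levels (19.4 CPM) did not differ from neighbour to neighbour, and T/NK/ILC-like cells held 2.11 CPM from 1 UMI. No *Cd80* UMI was found in the 50 B-cell-like cells there, which allows up to 10.1 CPM at 3 UMIs.

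*Icosl* and *Cd40* had their highest level in B-cell-like cells of both libraries. *Icosl* stood at 111 CPM (76.7 to 156) in B-cell-like, 53.1 (36.8 to 74.2) in dendritic-like and 16.4 (10.3 to 24.8) in macrophage-like cells at steady state. On AngII the same classes held 70.9 (53.4 to 92.2), 44.7 (37.6 to 52.7) and 20.1 CPM (16.6 to 24.1). B-cell-like cells were above dendritic-like cells in both libraries, by 2.10-fold (1.26 to 3.49) and 1.59-fold (1.14 to 2.18), and T/NK/ILC-like cells held 6.33 and 7.51 CPM. For *Cd40*, B-cell-like cells (70.9 CPM, 43.9 to 108) were above macrophage-like cells (32.8, 23.8 to 44.0) at steady state, by 2.16-fold (1.22 to 3.72). On AngII the top 5 classes, from B-cell-like (50.3 CPM) to macrophage-like (37.8), dendritic-like (36.2), monocyte-like (26.7) and neutrophil-like (19.1), did not differ from neighbour to neighbour. All 5 lay above the T/NK/ILC-like level of 5.63 CPM (2.58 to 10.7).

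Both PD-1 ligands had their highest level on AngII in dendritic-like cells, although *Pdcd1lg2* did not stand apart from T/NK/ILC-like cells there and was highest in those with clusters in place of the gate. *Cd274* stood at 59.1 CPM (51.0 to 68.2) in dendritic-like cells, followed by neutrophil-like (34.8), B-cell-like (27.1), monocyte-like (22.1), T/NK/ILC-like (12.5) and macrophage-like cells (11.3, 8.70 to 14.4). Dendritic-like cells were above neutrophil-like cells by 1.70-fold (1.21 to 2.43), while macrophage-like and T/NK/ILC-like cells did not differ. The dendritic-like rank rested on 37 migratory-like cells, described below, which held 120 of the 188 *Cd274* UMIs. The other 269 dendritic-like cells held 24.2 CPM, a value below the neutrophil-like and B-cell-like ones. No class here can serve as a background for *Cd274*, which many leukocytes are known to express. *Pdcd1lg2* stood at 17.0 CPM (12.8 to 22.2) in dendritic-like and 10.6 (6.20 to 17.0) in T/NK/ILC-like cells, and these did not differ beyond counting error. Macrophage-like (1.56 CPM), monocyte-like (3.76) and neutrophil-like cells (4.15) held *Pdcd1lg2* in 0.737%, 2.15% and 1.03% of cells, below the 3.53% of T/NK/ILC-like cells. No class as a whole stood above the T/NK/ILC-like level of *Pdcd1lg2* beyond counting error, and the macrophage-like level lay below its interval. Whether T/NK/ILC-like cells express the gene themselves was not tested. The migratory-like subset of the dendritic-like cells held *Pdcd1lg2* at 103 CPM (73.2 to 142). At steady state *Cd274* was found in macrophage-like cells with 1 UMI in all (0.745 CPM, 0.0189 to 4.15) and *Pdcd1lg2* with none, in 115 cells at a median depth of 9802 UMIs. B-cell-like cells held 6 *Pdcd1lg2* UMIs in 6 of 50 cells (20.3 CPM, 7.44 to 44.1).

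The inhibitory receptors had different ranges. *Cd200r1*, the receptor of CD200, was found at like levels in the myeloid classes on AngII, from 53.5 CPM in dendritic-like to 49.8 in macrophage-like, 48.4 in monocyte-like and 39.0 in neutrophil-like cells. T/NK/ILC-like cells held 41.3 CPM, and B-cell-like cells 16.8 (8.92 to 28.6). At steady state dendritic-like cells were highest, at 98.4 CPM (75.6 to 126), 1.80-fold (1.11 to 3.01) above monocyte-like cells, and the 50 B-cell-like cells held 0 UMIs. *Havcr2* was a gene of monocyte-like and dendritic-like cells, at 93.5 (67.1 to 127) and 96.9 CPM (74.3 to 124) at steady state and at 91.4 (79.7 to 104) and 74.6 CPM (65.4 to 84.7) on AngII. Steady-state macrophage-like cells held only 2 *Havcr2* UMIs (1.49 CPM, 0.181 to 5.38), and T/NK/ILC-like and B-cell-like cells 1 and 0. On AngII, macrophage-like cells held 21.3 CPM (17.7 to 25.5) and B-cell-like cells 16.8 (8.92 to 28.6), which did not differ, whereas neutrophil-like cells (37.3) were above macrophage-like cells by 1.75-fold (1.21 to 2.48).

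**Figure D1:**
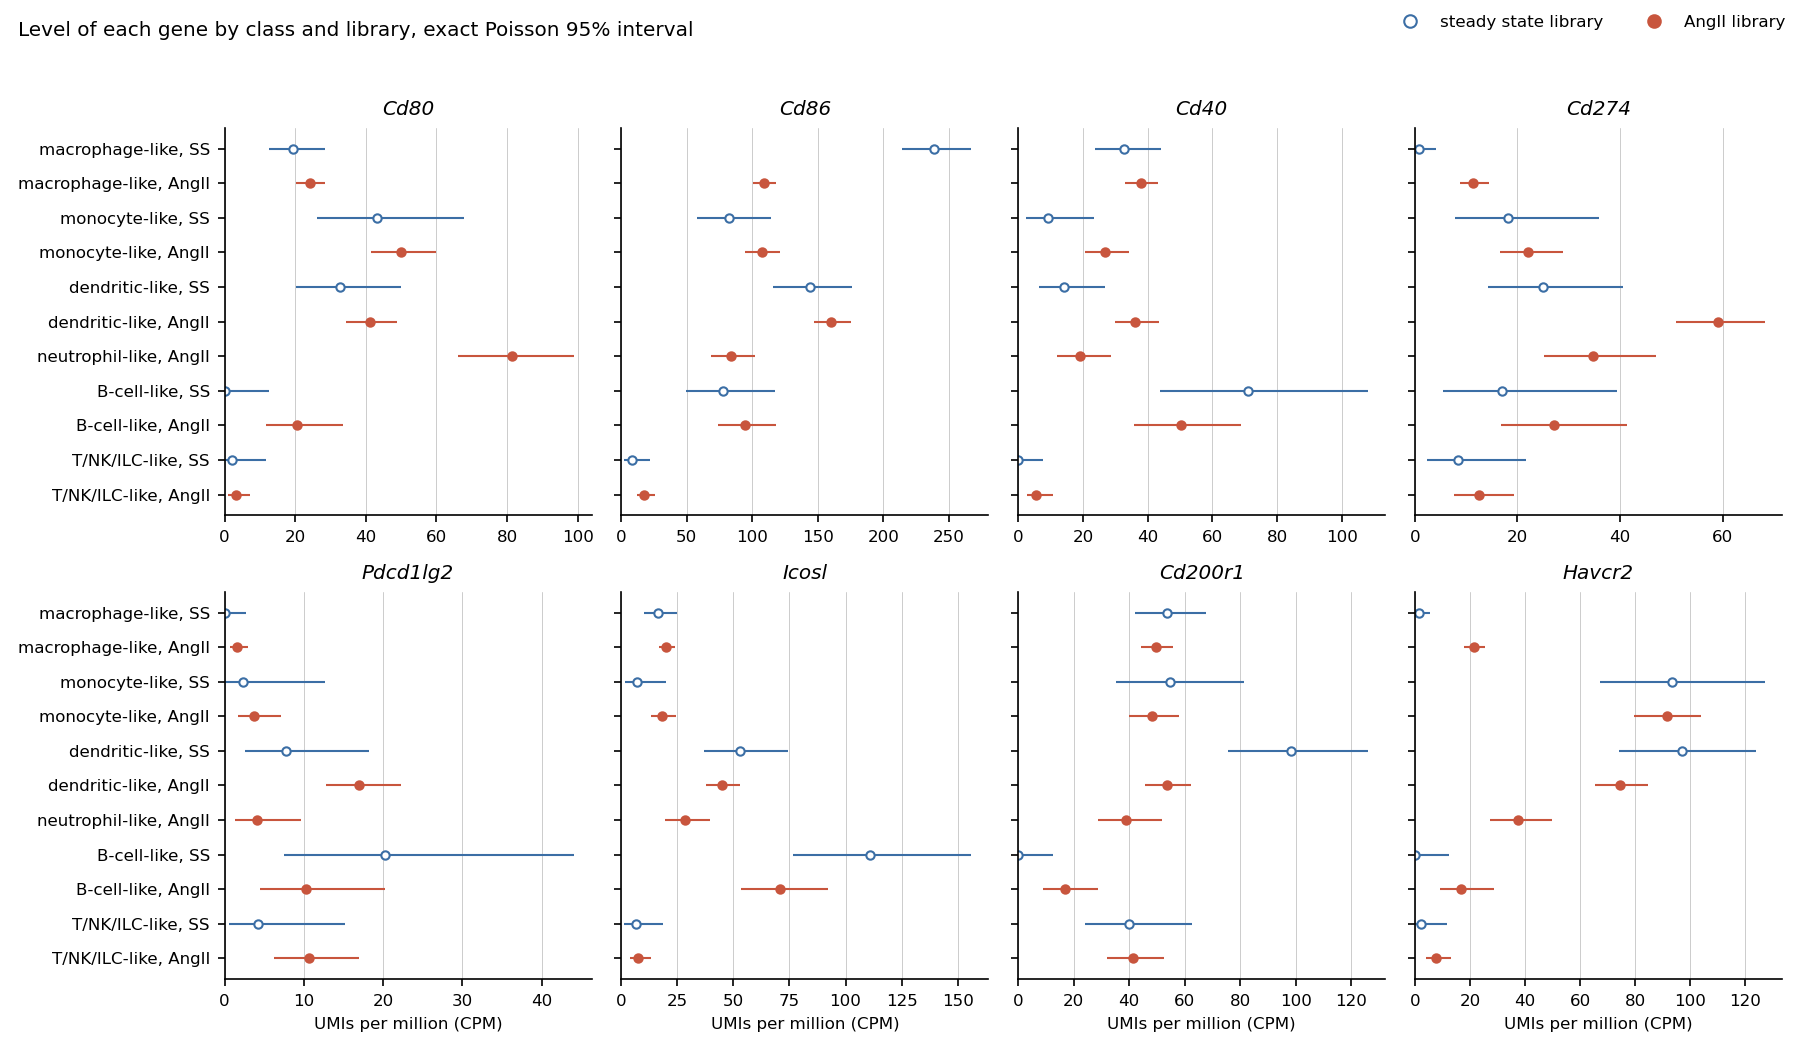
Level of each gene in CPM ( horizontal axis, own scale in each panel) in the marker-classed cells of the steady-state (open blue, SS) and AngII library (filled red). Points are summed levels of a class and bars exact Poisson 95% intervals. *Cd86* in macrophage-like cells stood at 239 CPM at steady state and 109 on AngII. *Cd274* was highest in dendritic-like cells on AngII, at 59.1 CPM, which was 24.2 CPM without the migratory-like cells.

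Shares of cells followed depth as well as level, and were therefore also computed with every cell thinned to 1000 UMIs. At least 1 *Cd86* UMI was found in 92 of 115 steady-state macrophage-like cells (80.0%, 71.5 to 86.9) and 300 of 1086 on AngII (27.6%, 25 to 30.4), at median depths of 9802 and 1472 UMIs. Thinned, the shares were 21.6% of 113 cells and 11.1% of 711, so the difference was smaller but of the same direction as in CPM. *Havcr2* was found in 53.6% of steady-state and 20.6% of AngII monocyte-like cells, and thinned in 10.9% and 7.50%. *Cd274* on AngII was found in 59 of 306 dendritic-like cells (19.3%, 15.0 to 24.2) and 54 of 1086 macrophage-like cells (4.97%, 3.76 to 6.44), and thinned in 5.07% and 1.80%. *Icosl* was found in 40% of steady-state B-cell-like cells (26.4 to 54.8) and 18.2% on AngII (13.3 to 23.9), and thinned in 10.1% and 7.55%.

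Dendritic-like cells on AngII carried more of 4 of the 8 genes than macrophage-like cells, and less of none. A gene is called higher or lower from a 2-fold ratio of CPM, with at least 20 UMIs in both groups together; of all genes with that many UMIs, 9.26% were higher and 16.3% lower. *Pdcd1lg2* was 10.9-fold higher (5.33 to 25.1), *Cd274* 5.24-fold (3.94 to 7.06), *Havcr2* 3.49-fold (2.80 to 4.38) and *Icosl* 2.22-fold (1.72 to 2.86). *Cd80* (1.71), *Cd86* (1.47), *Cd200r1* (1.07) and *Cd40* (0.956) stayed within 2-fold. Where each cell counted equally, *Cd274* stood at 2.88-fold and *Havcr2* at 2.58-fold, thinned at 3.21-fold and 2.28-fold, and with clusters *Cd200r1* stood at 0.455. The median log2 ratio of the 8 genes was 0.96, and that of all genes -0.14. Of the UMIs of dendritic-like cells on AngII, 120 of 188 for *Cd274* and 38 of 54 for *Pdcd1lg2* came from the 37 migratory-like cells. So did 44 of 142 for *Icosl* and 6 of 237 for *Havcr2*. The other dendritic-like cells held *Icosl* at 34.9 CPM, against 20.1 in macrophage-like cells.

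At steady state *Havcr2* (65.0-fold, 17.2 to 548) and *Icosl* (3.24-fold, 1.84 to 5.81) were higher in dendritic-like than macrophage-like cells and *Cd40* was lower (0.429, 0.184 to 0.890). Of all genes, 9.65% were higher and 19.2% lower. *Cd86* stood at 0.601 of the macrophage-like level (0.471 to 0.760), and *Cd80* (1.69) and *Cd200r1* (1.83) within 2-fold. *Cd274* (16 UMIs against 1) and *Pdcd1lg2* (5 against 0) were too sparse to call. A single cell carried most of these UMIs, as described next. With clusters in place of the gate, *Icosl* stood at 1.38-fold, *Cd200r1* at 4.27-fold and *Cd40* at 0.180. With the cell richest in the gene left out, *Cd80* stood at 0.611 and *Cd40* at 0.0516.

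Within the dendritic-like cells, the migratory-like subset stood out for ligands. It was classed by other markers of dendritic migration and held 37 cells on AngII (median depth 10826 UMIs) and 3 at steady state. On AngII *Cd274* stood at 327 CPM (271 to 391) in migratory-like cells, against 24.2 (18.8 to 30.7) in the other 269 dendritic-like cells (median depth 2523), a ratio of 13.5 (9.95 to 18.5). *Pdcd1lg2* stood at 103 (73.2 to 142) against 5.69 CPM, a ratio of 18.2 (9.90 to 34.9), which was 10.8 without the cell with the most *Pdcd1lg2* UMIs. *Cd40* was higher by 7.26-fold (4.95 to 10.7), *Cd80* by 6.27-fold (4.37 to 8.97), *Icosl* by 3.44-fold (2.35 to 4.95) and *Cd86* by 2.56-fold (2.08 to 3.14). By summed UMIs, all 6 genes of ligands and CD40 were higher in migratory-like cells. Where each cell counted equally, *Cd274* stood at 8.14-fold, and *Cd86* (1.91) and *Icosl* (1.90) fell short of 2-fold, as did *Icosl* thinned (1.95). The inhibitory receptors were not higher: *Havcr2* was lower (16.3 against 82.2 CPM, 0.199, 0.0722 to 0.439) and *Cd200r1* stood at 32.7 against 56.2 CPM (0.581, 0.294 to 1.04). Among all genes 10.5% were higher and 22.3% lower in migratory-like cells, and the median log2 ratio was 2.21 for the 8 genes and -0.25 for all.

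The migratory-like cells on AngII varied among themselves. *Cd274* was found in 23 of 37 cells (62.2%, 44.8 to 77.5), with 0 to 15 UMIs a cell and a median of 2. *Cd86* was found in 22 cells, with up to 17 UMIs, and *Cd40* in 20, with up to 8. *Cd80* and *Pdcd1lg2* were each found in 16 cells, with up to 13 and 17 UMIs, and *Icosl* in 12, with up to 11. Thus no member was found in every cell. Thinned to 1000 UMIs, *Cd274* was found in 24.5% of 26 migratory-like cells and 2.74% of 217 other dendritic-like cells. Of the *Cd200r1* UMIs of the subset, 7 of 12 came from 1 cell.

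The 3 migratory-like cells at steady state differed in depth, at 48618, 17090 and 14476 UMIs. The deepest held 15 *Cd274*, 14 *Cd80*, 8 *Cd40*, 6 *Icosl*, 5 *Pdcd1lg2* and 1 *Cd86* UMIs. The second held 5 *Cd86*, 2 *Icosl* and 1 UMI each of *Cd80*, *Cd40* and *Cd274*, and the third 2 *Cd86* and 2 *Cd200r1* UMIs. The deepest cell alone therefore held 15 of the 16 *Cd274*, 8 of the 9 *Cd40*, 14 of the 21 *Cd80* and all 5 *Pdcd1lg2* UMIs of the 28 steady-state dendritic-like cells. None of *Cd274*, *Cd40* or *Pdcd1lg2* was found in the other 25 dendritic-like cells, which allows up to 5.36 CPM at 3 UMIs.

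The conventional subsets divided the inhibitory receptors. On AngII, cDC1-like cells (150, median depth 2902 UMIs), the cross-presenting type, held *Havcr2* at 116 CPM (101 to 134), and cDC2-like cells (51, median depth 16238) at 20 (11.4 to 32.4), a ratio of 5.82 (3.50 to 10.4). *Cd200r1* went the other way, at 20.2 (14.0 to 28.0) against 135 CPM (111 to 163), a ratio of 0.149 (0.0991 to 0.221), or 0.284 with clusters in place of the gate. The 10 leading genes of the AngII cDC2-like cells included 1 macrophage marker and some markers of the type 2-like macrophages described below. Their part in the levels of this subset was not tested. At steady state, with 11 cells in each subset, *Havcr2* was found in 10 of 11 cDC1-like cells at 225 CPM (169 to 294) and in 0 of 11 cDC2-like cells, at least 19.7-fold higher. *Cd200r1* was found in 0 of 11 cDC1-like and 10 of 11 cDC2-like cells, at 209.7 CPM (158 to 273). The division was therefore present in both libraries and sharper at steady state, a difference that was not tested.

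The ligands also differed between these subsets. On AngII *Cd80* was 4.03 CPM (1.62 to 8.31) in cDC1-like and 68.7 (51.7 to 89.4) in cDC2-like cells, a ratio of 0.0587 (0.0226 to 0.129). *Icosl* (0.381, 0.233 to 0.619) and *Cd40* (0.334, 0.181 to 0.606) were lower in cDC1-like cells as well, and *Cd40* stood at 0.764 where each cell counted equally, 0.663 with no filter on cells and 0.636 thinned. *Cd86* (122 against 141 CPM) and *Cd274* (15.0 against 28.7, a ratio of 0.997 when thinned) stayed within 2-fold. So 1 gene was higher and 4 lower in cDC1-like cells, against 8.85% and 10.6% of all genes. Thinned, with fewer UMIs, 0 were called higher and 0 lower. At steady state *Cd86* was higher in cDC1-like cells, at 242 (183 to 314) against 53.4 CPM (29.2 to 89.6). The leading genes of the steady-state cDC2-like cells included histone genes and *Top2a*, marks of dividing cells, whose part in this was not tested.

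**Figure D2:**
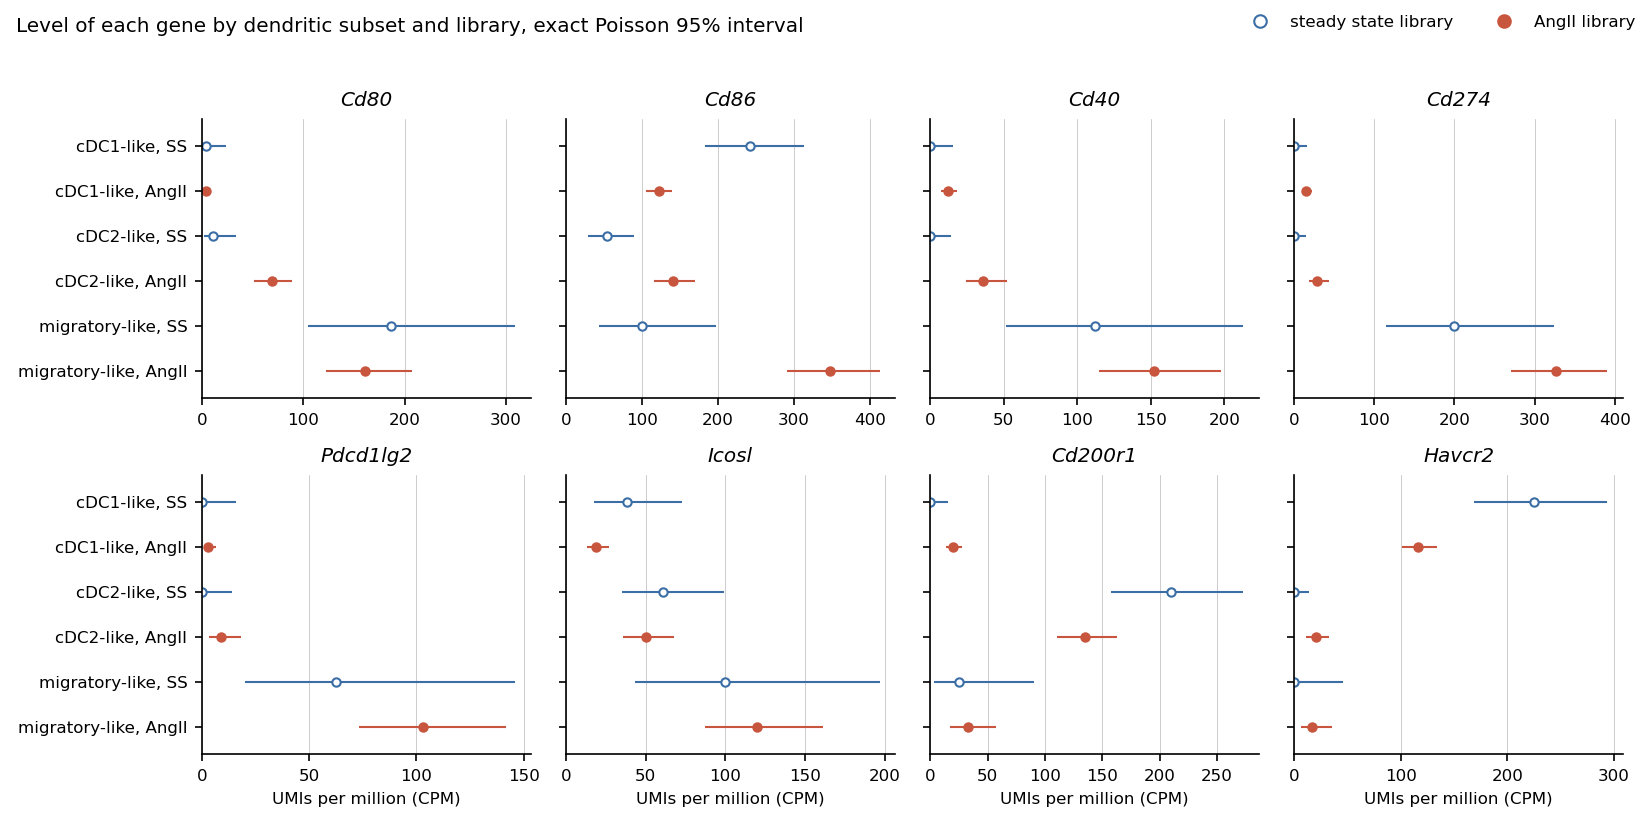
Level of each gene in CPM ( horizontal axis, own scale in each panel) in cDC1-like, cDC2-like and migratory-like cells at steady state (open blue, SS; 11, 11 and 3 cells) and on AngII (filled red; 150, 51 and 37 cells). Bars are exact Poisson 95% intervals. *Cd274* and *Pdcd1lg2* were highest in migratory-like cells, at 327 and 103 CPM on AngII, *Havcr2* in cDC1-like cells and *Cd200r1* in cDC2-like cells.

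Neutrophil-like cells on AngII, short-lived cells of the innate response, held more of 2 genes than macrophage-like cells and less of none, against 8.48% and 12.1% of all genes. These were *Cd80* (3.37-fold, 2.57 to 4.39) and *Cd274* (3.09-fold, 2.04 to 4.62), the latter at 34.8 against 11.3 CPM. Where each cell counted equally, *Cd274* stood at 1.43-fold and was not called. *Cd40* stood at 0.504 (0.313 to 0.776), and was called lower with the stricter gate (0.356) and with at least 1000 genes per cell (0.267), as *Cd200r1* was with clusters (0.476). With the gate as described, *Cd200r1* stood at 0.783, and *Cd86*, *Icosl* and *Havcr2* between 0.770 and 1.75.

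Between the libraries, macrophage-like cells differed in 3 of the 8 genes. *Cd86* was lower on AngII, at 109 (100.4 to 118) against 239 CPM (214 to 267), a ratio of 0.455 (0.397 to 0.522). *Cd274* was higher, with 65 UMIs in 1086 cells against 1 in 115 (11.3 against 0.745 CPM, 15.1-fold, 2.62 to 607). *Havcr2* was higher as well, with 123 UMIs against 2 (21.3 against 1.49 CPM, 14.3-fold, 3.88 to 119.6). *Cd80* (1.24), *Icosl* (1.23), *Cd40* (1.15) and *Cd200r1* (0.928) stayed within 2-fold, and *Pdcd1lg2* had 9 UMIs against 0. Over the alternatives for the whole class, *Cd274* ran from 5.44-fold to 27.2-fold and *Havcr2* from 6.28-fold to 28.9-fold, and *Cd200r1* stood at 2.17-fold with clusters. Of all genes, 8.51% were higher and 9.29% lower on AngII, with a median log2 ratio of -0.04, and 0.30 for the 7 genes with enough UMIs. The B-cell-like level on AngII was 16.8 CPM for *Havcr2*, close to that of macrophage-like cells, while the steady-state B-cell-like cells held none. Monocyte markers summed to 773 CPM in macrophage-like cells on AngII and 163 at steady state. The part of monocyte transcripts in these ratios was not tested.

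The mix of macrophage subsets differed between the libraries, so the homeostatic-like subset, 50 and 242 cells, was also compared by itself, a choice made after the data were seen. There *Cd86* stood at 124 against 228 CPM (0.541, 0.426 to 0.689), short of 2-fold. *Cd274* had 9 UMIs against 1 (3.1-fold, 0.430 to 136) and *Havcr2* 11 against 1 (3.79-fold, 0.551 to 163), too few to call. None of the 5 genes with enough UMIs was called within this subset, where 9.54% of all genes were higher and 6.70% lower.

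Dendritic-like cells differed between the libraries in *Cd40* (36.2 against 14.1 CPM, 2.57-fold, 1.31 to 5.77), *Cd274* (59.1 against 25, 2.37-fold, 1.42 to 4.23) and *Pdcd1lg2* (17.0 against 7.81, 2.17-fold, 0.877 to 6.97), all 3 higher on AngII. For *Pdcd1lg2* the interval includes 1. None was lower, and of all genes 8.53% were higher and 7.21% lower. *Cd86* was alike, at 160.4 and 144 CPM (1.12-fold, 0.892 to 1.41), and *Cd200r1* stood at 53.5 against 98.4 (0.543, 0.405 to 0.738). The stricter gate left 0 of the 3 calls, with *Cd274* and *Cd40* at 1.98-fold and *Pdcd1lg2* at 1.82-fold. Thinned, too few UMIs were left to call them, at 4.42-fold, 4.34-fold and 4.31-fold for *Cd274*, *Cd40* and *Pdcd1lg2*. With clusters *Cd200r1* stood at 0.231. The median log2 ratio was 0.24 for the 8 genes and -0.02 for all.

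Without the migratory-like cells, which made up 3 of 28 dendritic-like cells at steady state and 37 of 306 on AngII, *Cd274* was at least 4.51-fold and *Cd40* at least 3.92-fold higher on AngII, against 0 UMIs of each at steady state. *Cd80* was 2.39-fold higher (1.05 to 6.73), at 25.6 against 10.7 CPM, and these were the 3 genes called higher, against 9.28% of all genes. In the cDC2-like subset, 4 genes were higher on AngII, against 12.5% of all genes: *Cd80* (68.7 against 11.4 CPM, 6.0-fold, 1.95 to 30.0), *Cd86* (141 against 53.4, 2.64-fold, 1.51 to 4.99), *Cd40* (at least 3.17-fold) and *Cd274* (at least 2.51-fold). The steady-state side of that comparison is 11 cells. Macrophage markers summed to 1033 CPM in them and to 2782 CPM in the cDC2-like cells on AngII. The leading genes of the 2 sides also differed, as given above, and the part of this in the ratios was not tested. In cDC1-like cells 1 gene was called lower and none higher on AngII, against 8.09% and 13.1% of all genes. The gene called lower was *Icosl*, with 33 UMIs against 9 (19 against 38.2 CPM, 0.497, 0.233 to 1.18), an interval that includes 1. *Cd40* (21 UMIs against 0), *Cd274* (26 against 0) and *Cd200r1* (35 against 0) had lower bounds only, of 0.949-fold, 1.18-fold and 1.58-fold. For these genes a 2-fold rise could be neither called nor excluded. *Cd86* stood at 0.504 (0.375 to 0.688) and *Havcr2* at 0.517 (0.380 to 0.713) of steady state, just short of 2-fold. *Cd86* therefore had opposite signs in the 2 conventional subsets and a ratio near 1 over all dendritic-like cells, and the difference between the subsets was not tested.

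**Figure D3:**
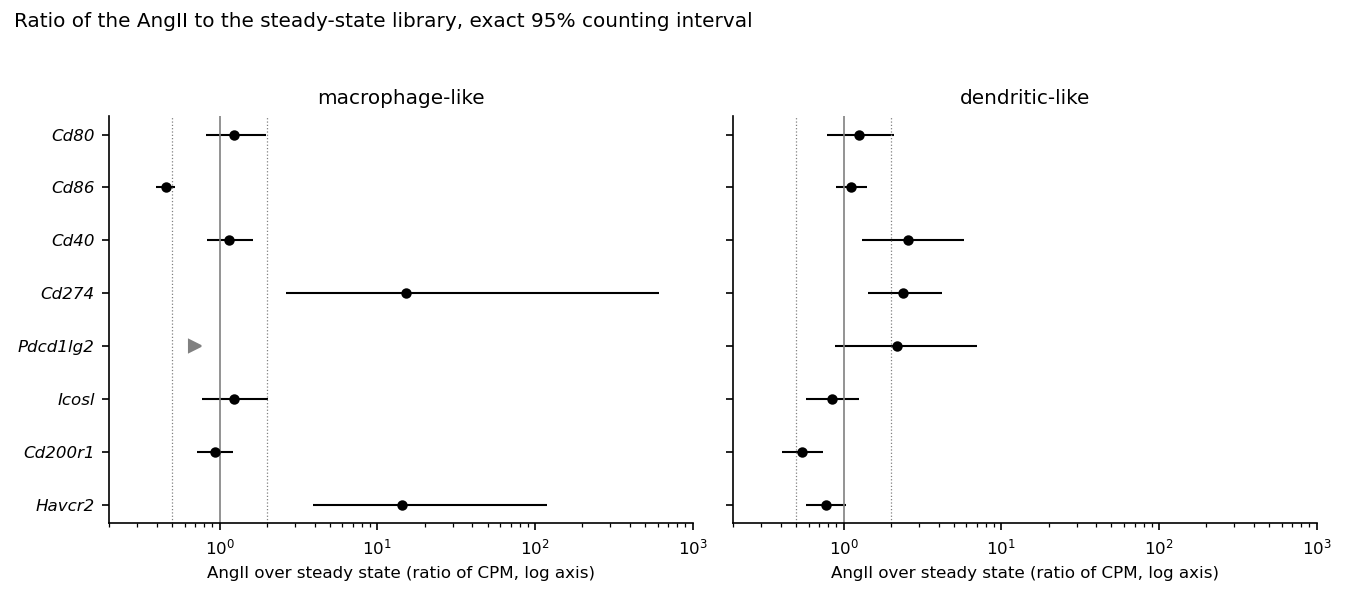
Ratio of the level on AngII to that at steady state (CPM over CPM, log axis) in macrophage-like and dendritic-like cells. Bars are exact 95% counting intervals, the solid line marks equal levels, dotted lines mark 2-fold and 0.5-fold, and the grey triangle is a lower bound where steady state held 0 UMIs. *Cd86* lay below 0.5-fold in macrophage-like cells (0.455) and near 1 in dendritic-like cells (1.12), and the wide bars of *Cd274* and *Havcr2* in macrophage-like cells rest on 1 and 2 steady-state UMIs.

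Monocyte-like cells held *Havcr2* at like levels in both libraries (0.978, 0.698 to 1.40), in contrast to macrophage-like cells, although the difference of the ratios was not tested. Of the 8 genes, 2 were higher on AngII and none lower, against 10.9% and 7.78% of all genes. They were *Cd40*, with 64 UMIs against 4 (2.93-fold, 1.09 to 11.1), and *Icosl*, with 43 against 3 (2.62-fold, 0.840 to 13.2), whose interval includes 1. *Cd86* stood at 107 against 82.1 CPM (1.31-fold, 0.919 to 1.91) and *Cd80* at 50.1 against 43.3 (1.16-fold, 0.709 to 1.99). B-cell-like cells stayed within 2-fold for *Cd86* (1.21), *Cd40* (0.709), *Cd274* (1.60) and *Icosl* (0.636), the 4 genes with enough UMIs, while 15.4% of all genes were higher and 7.14% lower. The 3 genes with 0 UMIs in steady-state B-cell-like cells, *Cd80*, *Cd200r1* and *Havcr2*, had 13 to 16 on AngII, where macrophage markers summed to 10201 CPM in this class against 1533 at steady state.

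Among macrophage subsets on AngII, the reparative-like cells (242, median depth 1666 UMIs) held more of 3 genes than the homeostatic-like cells (242, median depth 2354). *Havcr2* stood at 37.9 (28.6 to 49.3) against 7.47 CPM (3.73 to 13.4), a ratio of 5.08 (2.63 to 10.8). *Cd274* stood at 16.5 against 6.11 CPM (2.71-fold, 1.22 to 6.62) and *Cd80* at 35.2 against 16.3 (2.16-fold, 1.30 to 3.67). None was lower, while among all genes 3.92% were higher and 5.78% lower. *Cd86* was alike, at 109.6 and 124 CPM (0.887, 0.713 to 1.10), and *Cd40* stood at 0.551 (0.347 to 0.861). The median log2 ratio was -0.08 for the 7 genes with enough UMIs and -0.09 for all. With clusters in place of the gate *Havcr2* stood at 2.25-fold, and where each cell counted equally at 11.6-fold. The 10 leading genes of the reparative-like cells included 1 monocyte marker. Monocyte markers summed to 810 CPM in them, against 388 in homeostatic-like cells. The part of monocyte transcripts in these levels was not tested.

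The interferon-response-like cells (129, median depth 2489 UMIs) held *Cd274* at 18.5 CPM (10.8 to 29.6), 3.02-fold (1.27 to 7.69) the homeostatic-like level, and *Havcr2* at 23.9 (3.20-fold, 1.49 to 7.31). Their 10 leading genes also included 1 monocyte marker, and monocyte markers summed to 1495 CPM in them, whose part was not tested. *Cd40* was highest in this subset, at 72.7 CPM (56.4 to 92.4), 1.82-fold (1.26 to 2.62) the homeostatic-like level of 40. *Cd200r1* was highest in the type 2-like subset, at 91.0 CPM (72.3 to 113), and stood there at 106 (74.6 to 146) at steady state. *Icosl* ran from 19.3 to 23.9 CPM over the subsets, less than its counting error. *Pdcd1lg2* had no UMI in homeostatic-like or interferon-response-like cells and 5 in reparative-like cells.

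**Figure D4:**
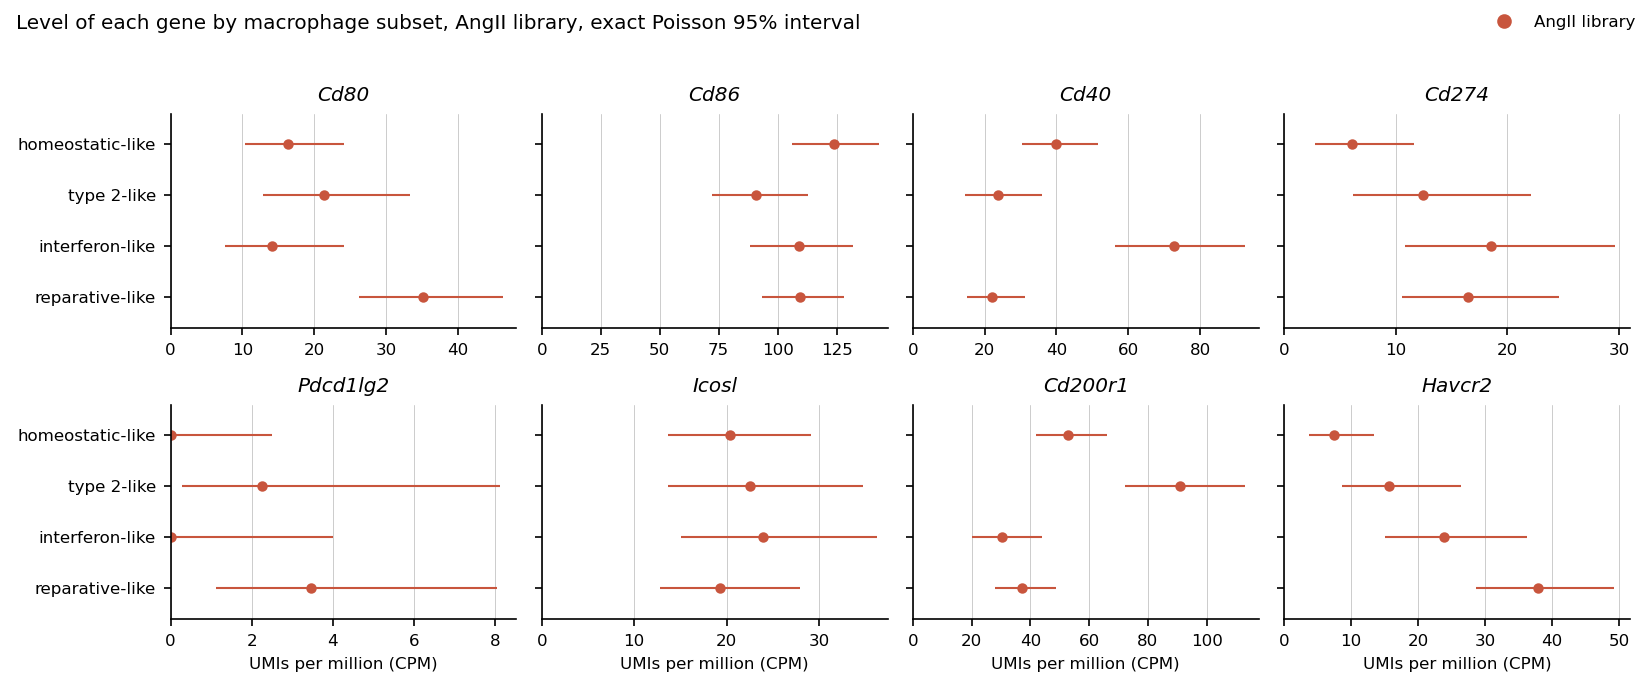
Level of each gene in CPM ( horizontal axis, own scale in each panel) in the homeostatic-like (242 cells), type 2-like (166), interferon-response-like (129) and reparative-like (242) macrophages of the AngII library. Bars are exact Poisson 95% intervals. *Havcr2* ran from 7.47 CPM in homeostatic-like to 37.9 in reparative-like cells, and *Cd40* was highest in interferon-response-like cells, at 72.7 CPM.

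With the gate as described, the eYFP reporter separated none of the genes with at least 20 UMIs by 2-fold. On AngII, 246 macrophage-like cells with a *Yfp* UMI (median depth 7677) and 840 without (1208) held *Cd86* at 108 and 109.8 CPM (0.981, 0.836 to 1.15). The ratios of the other 6 genes with enough UMIs ran from 0.705 for *Cd80* (0.492 to 1.0) to 1.10 for *Cd40* (0.833 to 1.44), and 0 of the 7 were called. *Pdcd1lg2* had 2 UMIs against 7 (0.307, 0.0312 to 1.61), too few to call, as were those of *Cd274* in the homeostatic-like subset, where it stood at 0.321. Of all genes 2.33% were higher and 1.50% lower in cells with a *Yfp* UMI. At steady state, 89 cells with and 26 without held *Cd86* at 239 and 244 CPM (0.976, 0.691 to 1.41), and 0 of 5 genes were called, against 11.2% of all genes higher and 4.94% lower. With clusters 1 gene was higher and 2 lower, and 2 were lower in the homeostatic-like subset. Depth moved with the reporter call, and its part was not tested.

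Migratory-like cells on AngII often carried several of the 8 genes at once. At full depth, 26 of 37 cells (70.3%, 53.0 to 84.1) held at least 2 of them, against 132 of 306 dendritic-like cells (43.1%, 37.5 to 48.9) and 246 of 1086 macrophage-like cells (22.7%, 20.2 to 25.3). The 306 dendritic-like cells include these 37. Thinned to 1000 UMIs, the shares were 24.2% of 26 cells (7.69 to 38.5 over 20 draws), 6.09% of 243 (4.12 to 8.64) and 3.45% of 711 (2.67 to 4.22), with 0.383% in T/NK/ILC-like cells. The mean number of the 8 genes per thinned cell was 0.900, 0.409 and 0.282 in migratory-like, dendritic-like and macrophage-like cells. Among cDC2-like cells on AngII, 33 of 51 (64.7%, 50.1 to 77.6) held at least 2 genes at full depth, and thinned 6.33% of 49. Both *Cd274* and *Pdcd1lg2* were found in 14 of the 37 cells, where the product of the single shares gives 9.95. In the 26 cells thinned to 1000 UMIs, both were found in 0.550 cells on average over the draws, against a product of 0.437. At steady state, 67 of 115 macrophage-like cells (58.3%, 48.7 to 67.4) held at least 2 genes, and thinned 2.88%.

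Of 38 other genes of these pathways, 12 were higher and 5 lower in migratory-like than in other dendritic-like cells on AngII, 4 stayed within 2-fold and 17 had under 20 UMIs. Of all genes with enough UMIs, 10.5% were higher and 22.3% lower. *Cd200*, the ligand of CD200R1, stood at 272 against 10.7 CPM (25.5-fold, 16.8 to 39.8). The TNF-receptor family members *Tnfrsf4* (OX40) and *Tnfrsf9* (4-1BB) had ratios of 134 (34.4 to 1149.5, from 35 UMIs against 2) and 42.6 (18.9 to 113). The CD40 signal adaptors were all higher, with *Traf1* at 1015 against 157 CPM (6.49-fold, 5.64 to 7.47), *Traf2* 3.71-fold, *Traf3* 3.49-fold and *Traf6* 2.68-fold. Lower were *Vsir* (VISTA, 0.127), *Lgals9* (galectin-9, a TIM-3 ligand, 0.149), *Cd244a* (0.309), *Lag3* (0.264) and *Cd226* (0.0900), the last from 1 UMI against 85.

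Between dendritic-like and macrophage-like cells on AngII, 10 of the 38 genes were higher and 7 lower, beside 9.26% and 16.3% of all genes, and 10 had under 20 UMIs. *Cd200* (58.9-fold, 22.5 to 219.5), the inhibitory receptor gene *Btla* (44.5-fold, 28.2 to 74.5) and *Traf1* (5.78-fold, 5.02 to 6.68) were higher. *Sirpa*, the receptor of the CD47 signal (0.252, 0.224 to 0.283), *Vsir* (0.283, 0.246 to 0.324) and *Lgals9* (0.295, 0.237 to 0.363) were lower. At steady state, where 22 of the 38 had under 20 UMIs, 7 were higher and 3 lower, and *Vsir*, *Sirpa* and *Lgals9* were the 3. Of all genes there, 9.65% were higher and 19.2% lower.

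Between the libraries, 5 of the 38 genes were higher and 1 lower in macrophage-like cells on AngII, 14 stayed within 2-fold and 18 had under 20 UMIs, beside 8.51% and 9.29% of all genes. *Pvr*, a ligand of CD226 and TIGIT, stood at 27.8 against 6.71 CPM (4.14-fold, 2.13 to 9.22), *Traf1* at 3.71-fold (2.24 to 6.59) and *Cd276* (B7-H3) at 3.35-fold (1.37 to 10.6), while *Cd226* was lower (0.453, 0.324 to 0.639). In dendritic-like cells 3 were higher and 1 lower, 19 stayed within 2-fold and 15 had under 20 UMIs, beside 8.53% and 7.21% of all genes. *Tnfsf9* (4-1BBL) stood at 98.5 against 45.3 CPM (2.17-fold, 1.48 to 3.30), and *Tnfsf4* (OX40L) had 56 UMIs against 0 (at least 3.76-fold). *Cd226* was lower here too (0.225, 0.163 to 0.310).

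The T-cell side of these pairs was present in the same libraries. On AngII the receptor genes *Cd28* (309 CPM), *Icos* (99.5), *Ctla4* (68.2) and *Pdcd1* (46.9), and the CD40 ligand gene *Cd40lg* (22.5), each had their highest level in T/NK/ILC-like cells. At steady state *Cd28* (207 CPM), *Icos* (86.5) and *Cd40lg* (42.2) were highest there as well, and *Ctla4* and *Pdcd1* had under 20 UMIs. *Vtcn1* (B7-H4) had 0 UMIs in these classes of both libraries.

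The genes whose levels ran most like each member were sought over 15 classes and subsets, 4 at steady state and 11 on AngII, among 9977 genes. Pearson's r was computed on log2(CPM + 10), and the groups share their library, depth and any free RNA, so the values are a description. *Cd274* ran most like *Map4k4* (r = 0.94), *Mreg* (0.92) and *Mthfs* (0.91), and *Pdcd1lg2* like *Car2* (0.98), *Birc2* (0.95) and *Tmem123* (0.94). *Havcr2* ran like *Taldo1* (0.96), *Met* (0.95) and *Mpc2* (0.88), and *Cd80* like *Clec7a* (0.93), *Cers6* (0.91) and *Stat3* (0.91). For *Cd86* these were *Gpr137b*, *Ctsh* and *Gpr137b-ps* (0.90 each), the first and last of which can share reads as gene and pseudogene. For *Cd40* they were *Eps15l1* (0.93), *Bmp2k* (0.87) and *Rab9* (0.86), for *Icosl* *Mif4gd* (0.93), *H2-Eb2* (0.90) and *Swap70* (0.87), and for *Cd200r1* *Hpcal1* (0.84), *Usp14* (0.83) and *S100a4* (0.83). Among the members themselves, *Cd274* and *Pdcd1lg2* were most alike (0.87), followed by *Cd40* and *Icosl* (0.82) and *Cd86* and *Cd40* (0.79). *Pdcd1lg2* stood at 103 CPM in migratory-like cells on AngII and at no more than 20.3 CPM in the classes described. How far its values of r rest on the migratory-like group was not tested.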

How the data were processed

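Single-cell 3′ libraries (10x v3.1) of adventitial CD45-positive cells were available as 1 library per condition. Per the labels and methods, the authors used Je for demultiplexing and Cell Ranger 3.1.0 for mapping (GENCODE M24 annotation on GRCm38.p6, extended by the reporter), and deposited raw UMI counts of each gene in each barcode called as a cell.

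From these counts, barcodes passed with 300 to 6500 genes and no more than 5% of UMIs mitochondrial. For the gate, ln(1 + UMIs per 10000) of each of 104 markers was standardised within a library and averaged per class. A cell joined the class with the highest score where at least 3 of its markers were detected and the lead was at least 0.1. Subsets needed 2 markers. The 8 genes and 38 pathway genes were no markers. Members, lists and markers were chosen with earlier results of these data known, and the scoring was settled after the data were seen.

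CPM is the summed UMIs of a gene per 1000000 UMIs of the group. Ratios carry exact conditional binomial intervals, levels exact Poisson and shares Clopper-Pearson intervals, all at 95% and for counting error only, with amplified reads collapsed to UMIs. With 1 library per condition no p-value was computed. A group at 0 UMIs was set to 3 UMIs to give a bound. Genes were called from 2-fold with at least 20 UMIs in both groups together. The genes named are the 8 members, the 38 pathway genes and the 3 most alike genes per member among genes with at least 100 UMIs, plus *Apoe*, *C1qa* and *Top2a*, chosen after their values were seen. Thinning drew 1000 UMIs from each cell without replacement and left out shallower cells. Shares are the expected value and co-detection the mean of 20 draws.

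Scrublet (Scanpy 1.11.5) called 5 of 306 steady-state cells and 0 of 4198 AngII cells as doublets, so doublets were left in. Alternatives changed the cell filter, the gate, the classing (Seurat 5.3.0 clusters with sctransform 0.4.2, 20 components and resolution 0.4, in R 4.3.3), the weight of cells, the depth and the *Yfp* threshold. The steps were tested on simulated data. With 200 genes changed 4-fold, 97.5% were recovered for dendritic-like against macrophage-like cells on AngII (11213 genes), 86.5% for migratory-like against other dendritic-like cells (8844) and 90.0% for AngII against steady state in macrophage-like cells (10805). Of the unchanged genes, 1.23%, 7.90% and 3.02% passed 2-fold in the same order. Gating simulated cells again gave the same class for 98.6% at steady state and 90.4% on AngII. Python 3.11.15 was used with pandas 2.3.3, SciPy 1.17.1, Matplotlib 3.10.9 and NumPy 2.4.6. Coordinates are from GENCODE M21 and promoters from RefSeq. Strand use in counting is not given in the sources used here.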

Additional observations from a re-analysis of the deposited data

Results flagged for a closer look

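Cells that the gate placed in no class also held these genes, above the level in the lymphocyte-like class used as a background. The 20 steady-state cells without a class (median depth 17834 UMIs) held *Cd86* at 207 CPM (161 to 262) and *Cd200r1* at 147 (109 to 195). The 1506 AngII cells without a class (median depth 774 UMIs) held *Cd86* at 106 CPM (94.6 to 118), *Cd200r1* at 78.2 (68.5 to 88.8), *Cd80* at 34.3 (28.0 to 41.6), *Cd40* at 27.1 (21.5 to 33.6) and *Icosl* at 26.1 (20.6 to 32.5). T/NK/ILC-like cells of the same library held *Cd86* at 17.5 CPM, *Cd80* at 3.13, *Cd40* at 5.63 and *Icosl* at 7.51, and B-cell-like cells *Cd200r1* at 16.8. In the cells without a class, macrophage markers summed to 14252 CPM at steady state and 11562 on AngII, and B-cell markers to 5727 and 7621. The part of either kind of cell in these levels was not tested.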

How the results depend on the processing

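Apart from the main values, 123 counts or shares and 632 single values stayed alike under the alternatives, 25 and 99 moved, and 1 changed direction: *Cd274* in B-cell-like against macrophage-like cells on AngII, 2.40-fold, stood at 0.723 by the mean of the cells' own CPM (the cause was not tested). Thinning leaves fewer UMIs and so fewer genes with 20 of them. It left 1 gene higher and 0 lower in migratory-like cells, 0 higher in reparative-like cells, 0 higher and 0 lower in dendritic-like against macrophage-like cells at steady state, and, on AngII against steady state, 1 higher in macrophage-like and 0 in dendritic-like cells. In cDC1-like against cDC2-like cells on AngII it left 0 higher and 0 lower. Genes lower in migratory-like cells numbered 2 with clusters, the mean of cells' CPM, no filter and the stricter gate. The stricter gate gave 4 higher and 0 lower genes in dendritic-like against macrophage-like cells at steady state, and 0 higher in dendritic-like cells on AngII against steady state. With clusters, the mean of cells' CPM and the cell with the most UMIs left out, 1 gene was lower in that last comparison. With clusters, 1 gene was lower in dendritic-like against macrophage-like cells and in reparative-like cells on AngII, 5 genes at steady state kept their highest class, and 1 was higher and 2 lower in *Yfp*+ cells at steady state, where the homeostatic-like subset gave 2 lower. That subset (added after the data were seen) gave 0 higher and 0 lower in macrophage-like cells between the libraries. The clusters of dendritic-like cells at steady state left out the deepest migratory-like cell, and *Cd274* there fell to 0.925 CPM from 25, so that its ratio between the libraries stood at 58.2 and not 2.37. The causes of the other moves were not tested. Removing doublets was not run, since none was called on AngII. No paired analysis was possible because the labels give 1 library per condition and no result comes from a test. At a median depth of 1092 UMIs on AngII, a gene with few UMIs in a shallow cell can be missed. Free RNA can add cells with a UMI, so shares of cells can move with both.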
